A study of Homo sapiens with 12 samples.

Results

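The comparison set the 3 libraries labelled SK-N-SH shTSPYL5 against the 3 libraries labelled BE2 shNC, 6 of the 12 RNA sequencing libraries of a neuroblastoma study. The pair was chosen by 2 measured properties, a very high MYCN level and nearly the same profile of FPKM, so both are given here as a description and carry no test. All genes with a mean of at least 0.5 FPKM (fragments per kilobase of gene, scaled for library depth) over the 6 libraries were examined, which left 15118 of the 58735 genes of the deposited table. The last gene inside that limit was AP003461.1, with a mean of 0.5001 FPKM, and the first outside was MIR7851 with 0.4999 FPKM.

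Neuroblastoma is a childhood tumour of the developing sympathetic nervous system. Its cells occur in a noradrenergic state, with sympathetic transcription factors, catecholamine enzymes and neuronal genes, and in a mesenchymal state rich in matrix and contractile genes. MYCN, a MYC family transcription factor that pairs with MAX at E-box DNA, is amplified in the line SK-N-BE(2) but not in SK-N-SH or its subclone SH-SY5Y. TSPYL5 belongs to the TSPY and NAP family, many of whose members bind histones.

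The first group is a TSPYL5 knockdown by a short hairpin RNA (shL5 in the titles) and carries SK-N-SH in every line label. The second is a control with a hairpin called shNC, is listed as WT, and is named SK_N_BE2 in the titles but SH-SY5Y in the cell line and source labels. It is called BE2 here. No treatment was given in either group. The pair therefore differs both in the line that the labels give and in the hairpin, and effects of the line and of the hairpin cannot be told apart. The other 6 libraries, BE2 shTSPYL5 and SK-N-SH shNC with 3 each, complete the design and serve below as a second pair that shares no library with the first. No label says that libraries of a group came from separate cultures or clones, so the p-values measure the spread between these libraries, which may be technical.

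The whole reads behind the values came to 15542671 to 16355217 per library in the SK-N-SH shTSPYL5 group and 15425460 to 16459726 in the BE2 shNC group, and mitochondrially encoded genes took 7.08% to 8.23% of them. MYCN stood at 988, 1013 and 1082 FPKM in the libraries labelled SK-N-SH shTSPYL5 and at 1043, 1072 and 1006 in those labelled BE2 shNC. It stood at 0.0408 on average in SK-N-SH shNC and had 0 reads in BE2 shTSPYL5, for which the floor of 3 reads in the group is 0.0218 FPKM. MYCN was thus high in 3 libraries labelled with a line that is not known for its amplification. Correlations of log2(FPKM + 1) across the 15118 genes were 0.986 to 0.988 among the SK-N-SH shTSPYL5 libraries, 0.988 among the BE2 shNC libraries, 0.982 to 0.984 between the groups, and 0.755 to 0.783 between these 6 libraries and the other 6. Genes are not independent replicates, and the correlations describe likeness only.

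The targeted gene was measured first. TSPYL5 (ENSG00000180543) stood at 17.1, 18.3 and 17.8 FPKM in the libraries labelled SK-N-SH shTSPYL5 and at 24.04, 24.4 and 25.8 in those labelled BE2 shNC. The groups did not overlap, and TSPYL5 was 1.395-fold lower in the knockdown-labelled libraries (log2 difference -0.46, SE 0.045, adjusted p 0.0041, limma). It was lower in all 17 alternative fits. The exact two-sided permutation test of this value gave p = 0.1, the smallest that 3 against 3 allows. SK-N-SH shNC, which carries the same line label as the knockdown group, averaged 12.9 FPKM, and BE2 shTSPYL5 averaged 12.8. Set against the control of its own labelled line, the library group labelled SK-N-SH shTSPYL5 was therefore higher in TSPYL5, which goes against its label, so directions below are those of the labelled libraries. Whether the labels of groups were exchanged was not tested. If the 2 shTSPYL5 groups or the 2 shNC groups were exchanged, the libraries compared would be a knockdown and a control of the same line. The directions below would then still run from knockdown to control, and a line name would change. Under any other exchange that involves these libraries, the directions would refer to other samples.

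**Figure D1:**
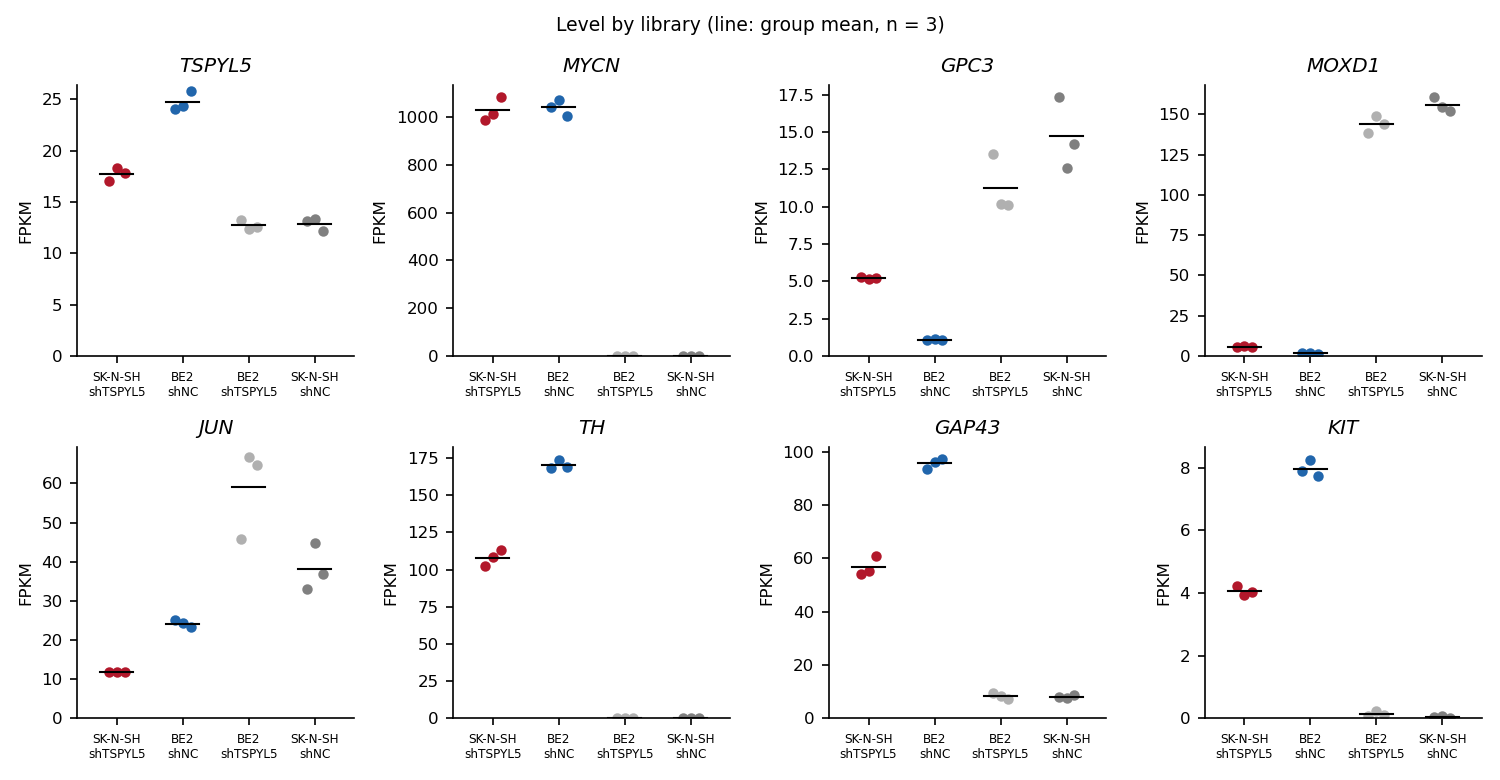
Level in FPKM (vertical axes, each starting at 0) of 8 genes in the 12 libraries; points are libraries, lines are means of 3 libraries. TSPYL5, JUN, TH, GAP43 and KIT are lower and GPC3 and MOXD1 higher in SK-N-SH shTSPYL5 than in BE2 shNC, while the MYCN points of these groups intermix between 988 and 1082 FPKM.

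Because the groups were chosen for their likeness, the number and size of their differences are a description. Of the 15118 genes, 929 passed an adjusted p of 0.05 (6.14%): 405 were higher (2.68%) and 524 lower (3.47%) in SK-N-SH shTSPYL5. The share of calls that were higher was 43.6%, and 33.3% of 679 calls when each library was rescaled to a fixed sum. The median fold of the called genes was 1.36, with a range of 1.12 to 9.52, and 298 genes were called with a ratio of means of at least 1.5, of which 148 were higher and 150 lower. An absolute log2 difference of at least 1 was reached by 23 called genes (0.152%). At the other end, 11453 genes (75.9%) had group means within a ratio of 1.2, and no gene had a mean of at least 5 FPKM in one group and under 0.5 in the other, among 7411 genes with at least 5 FPKM in either. The count rests on every library: it was 388, 310 and 676 without SK-N-SH shTSPYL5 replicate 1, 2 and 3, and 438, 349 and 466 without BE2 shNC replicate 1, 2 and 3. The libraries of the groups did not overlap for 4250 genes (28.1%), including all 929 called genes.

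**Figure D2:**
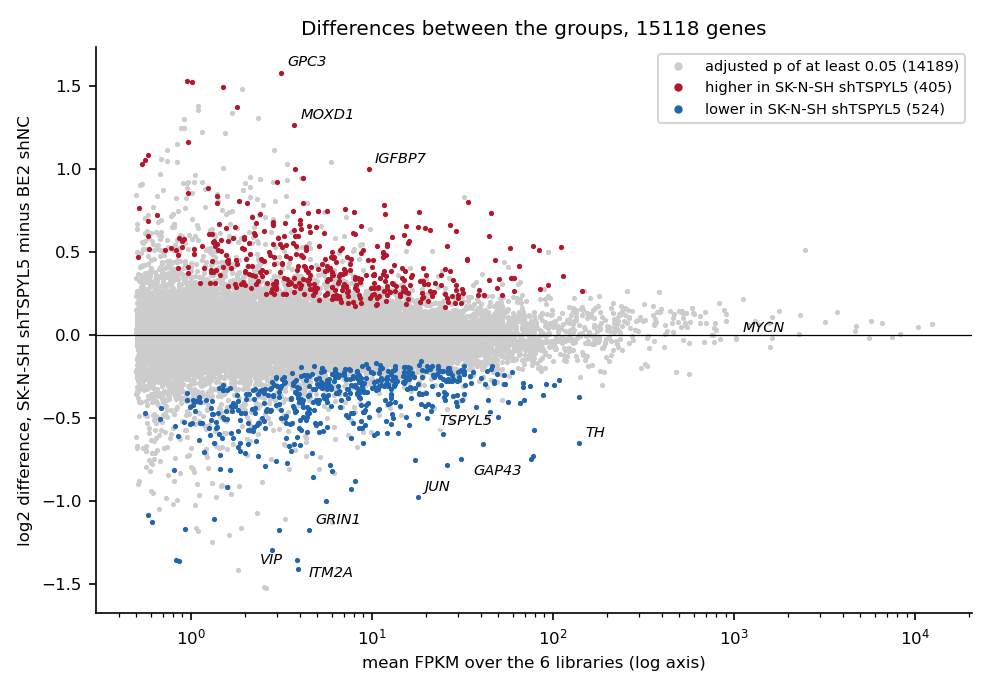
Each point is one of 15118 genes, by mean FPKM over the 6 libraries (horizontal, log axis) and by the log2 difference of log2(FPKM + 1) between SK-N-SH shTSPYL5 and BE2 shNC (vertical). The 405 higher and 524 lower genes sit mostly within 1 log2 unit of 0, and GPC3, MOXD1, ITM2A and VIP are among those farther out.

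The 12 largest rises were taken among called genes with at least 5 FPKM in the higher group and no overlap between the libraries of the groups. GPC3 (ENSG00000147257, chrX:133535745-133985895 on GRCh38), the cell-surface heparan sulphate proteoglycan glypican-3, stood at 5.28, 5.13 and 5.22 FPKM in the libraries labelled SK-N-SH shTSPYL5 and at 1.06, 1.12 and 1.05 in BE2 shNC. All 3 libraries of the first group lay far above those of the second, a 4.84-fold difference (log2 difference 1.58, SE 0.049, adjusted p 1.64e-04). MOXD1, a monooxygenase related to dopamine beta-hydroxylase, measured 5.47, 6.04 and 5.501 against 1.81, 2.06 and 1.48 FPKM (log2 difference 1.26, SE 0.085, adjusted p 0.0023). IGFBP7, a secreted protein of the insulin-like growth factor binding family, measured 13.03, 12.2 and 14.2 against 6.82, 6.28 and 5.19 FPKM (log2 difference 1.001, SE 0.095, adjusted p 0.0038).

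A transcription factor of sensory neurons was also among these rises. DRGX, a homeobox factor of dorsal root ganglion neurons, stood at 4.62, 5.95 and 5.56 FPKM against 2.35, 2.13 and 2.07, and rose 2.46-fold (log2 difference 0.998, SE 0.087, adjusted p 0.0029). FGFRL1, a fibroblast growth factor receptor without a kinase domain, averaged 5.78 against 2.52 FPKM (log2 difference 0.95, adjusted p 0.0025). Other rises were BST2 (tetherin, 5.57 against 2.78 FPKM), the long noncoding RNA NHEG1 (15.03 against 8.32), the lysosomal protease CTSC (9.24 against 5.05), the secreted KAZALD1 (6.61 against 3.54), the gene AL365223.1 (6.62 against 3.54) and the growth factor VEGFD (7.32 against 3.96). Of these 12 genes, VEGFD alone lost its call under an alternative, with an adjusted p of at most 0.1.

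The 12 largest falls were taken by the same rule. VIP, a neuropeptide of autonomic neurons, stood at 1.9, 1.52 and 1.77 FPKM in the libraries labelled SK-N-SH shTSPYL5 and at 5.91, 6.73 and 5.37 in BE2 shNC (log2 difference -1.36, SE 0.088, adjusted p 0.0023). ITM2A, a type II membrane protein, measured 1.47, 1.401 and 2.24 against 6.33, 6.08 and 5.97 FPKM (log2 difference -1.41, SE 0.11, adjusted p 0.0026). The means of both genes differed by more than 3-fold (3.47 and 3.602). GRIN1, the obligatory subunit of NMDA glutamate receptors, measured 2.35, 2.31 and 2.44 against 7.09, 6.78 and 6.05 FPKM, a 2.81-fold fall (log2 difference -1.18, SE 0.062, adjusted p 0.0013).

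JUN, a component of the AP-1 transcription factor, was held within a narrow range in each group, at 11.8, 11.8 and 11.8 FPKM against 25.1, 24.3 and 23.2, and fell 2.05-fold (log2 difference -0.98, SE 0.041, adjusted p 5.99e-04). FEZ1, an adaptor of axonal transport, averaged 3.395 against 7.79 FPKM (log2 difference -1.002, adjusted p 0.0026), and NMNAT2, an NAD-synthesizing enzyme of axons, 18.8 against 33.2 (log2 difference -0.79, adjusted p 0.0013). The other falls were STMN4, NPY and KIT, described with their groups below, IGFBP5 (3.07 against 6.35 FPKM), SMIM13 (4.09 against 7.75) and TRIM67, of the tripartite motif ubiquitin ligases (12.7 against 22.03). NPY alone among the 12 lost its call under some alternatives.

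Promoters of these genes and of the called neuronal genes below were searched for 3 motifs on both strands, since MYCN binds E-boxes and JUN binds AP-1 sites: the E-box CACGTG, the cyclic AMP response element TGACGTCA and the AP-1 site TGACTCA, of which no one contains another. The window ran from 250 bases before to 50 after the start in RefSeq on GRCh38.p14, taking the first listed promoter of a gene. Of the 12 largest rises 7 had a promoter in the table, and 2 of these (28.6%) held an E-box and 1 an AP-1 site. Of the 12 largest falls 10 were matched, and 1 held an E-box. Of the 18 called neuronal genes 10 were matched, and 1 held a cyclic AMP response element and none an E-box or an AP-1 site. Over the 9208 protein-coding genes tested that had a promoter, the shares were 10.5% for the E-box, 3.50% for the cyclic AMP response element and 2.48% for the AP-1 site, and over all 35116 promoters 7.26%, 1.85% and 4.95%. These counts are too small to read as a difference. The 5 promoters with a match are printed as the 250 bases before the start, 5′ to 3′, with the motif in capitals. DRGX lies at chr10:49396090-49396339 on the minus strand, FGFRL1 at chr4:1012214-1012463 on the plus strand, VEGFD at chrX:15384414-15384663 on the minus strand, FEZ1 at chr11:125496266-125496515 on the minus strand and SYN1 at chrX:47619858-47620107 on the minus strand. The first base of the motif lies 126, 28, 97, 160 and 159 bases before the start in these genes, in that order.
DRGX: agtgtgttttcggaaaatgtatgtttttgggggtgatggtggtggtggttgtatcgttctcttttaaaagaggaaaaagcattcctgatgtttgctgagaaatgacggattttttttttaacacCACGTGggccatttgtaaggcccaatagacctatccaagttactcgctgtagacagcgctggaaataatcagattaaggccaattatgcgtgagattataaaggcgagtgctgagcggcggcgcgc
FGFRL1: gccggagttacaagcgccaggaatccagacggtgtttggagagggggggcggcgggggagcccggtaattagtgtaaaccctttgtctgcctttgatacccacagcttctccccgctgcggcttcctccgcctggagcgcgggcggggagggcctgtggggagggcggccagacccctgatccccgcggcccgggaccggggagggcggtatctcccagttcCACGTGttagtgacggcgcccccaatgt
VEGFD: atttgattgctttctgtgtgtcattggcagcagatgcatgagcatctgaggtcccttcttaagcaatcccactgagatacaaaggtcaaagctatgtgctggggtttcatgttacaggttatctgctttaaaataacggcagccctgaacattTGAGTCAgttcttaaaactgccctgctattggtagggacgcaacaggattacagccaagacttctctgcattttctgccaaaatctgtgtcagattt
FEZ1: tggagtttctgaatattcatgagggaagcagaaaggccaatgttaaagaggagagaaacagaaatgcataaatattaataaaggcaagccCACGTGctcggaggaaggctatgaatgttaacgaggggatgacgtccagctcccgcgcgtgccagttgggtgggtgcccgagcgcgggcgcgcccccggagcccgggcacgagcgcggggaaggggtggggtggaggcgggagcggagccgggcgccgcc
SYN1: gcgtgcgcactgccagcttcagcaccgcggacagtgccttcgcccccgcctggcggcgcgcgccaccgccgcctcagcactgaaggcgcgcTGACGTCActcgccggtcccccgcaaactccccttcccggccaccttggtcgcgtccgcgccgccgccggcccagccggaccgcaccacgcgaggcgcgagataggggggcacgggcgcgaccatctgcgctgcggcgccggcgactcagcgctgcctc

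Genes of the neuronal cytoskeleton and synapse were mostly lower. Of 28 tested members of the list, 18 fell, none rose and 10 did not pass, against 3.47% of all genes that fell. This list and those below were chosen with earlier results of these data known, so their shares are descriptions and not independent findings. Their median log2 difference was -0.26, and -0.0017 over all genes tested. SNAP25, a SNARE protein of synaptic vesicle fusion, stood at 24.6, 21.1 and 23.3 FPKM in the libraries labelled SK-N-SH shTSPYL5 and at 37.9, 39.5 and 40.7 in BE2 shNC (log2 difference -0.75, SE 0.063, adjusted p 0.0026). GAP43, a growth cone protein, stood at 54.1, 55.1 and 61.03 against 93.7, 96.2 and 97.4 FPKM (log2 difference -0.75, SE 0.055, adjusted p 0.0025). In both genes the highest library of the first group lay well below the lowest of the second.

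STMN4, a stathmin that binds tubulin, measured 5.24, 5.46 and 4.31 against 10.3, 10.3 and 10.6 FPKM and was the member with the greatest fall (log2 difference -0.93, SE 0.076, adjusted p 0.0026). MAPT, the microtubule protein tau, measured 2.58, 2.94 and 3.16 against 5.496, 4.997 and 5 FPKM (log2 difference -0.67, SE 0.07, adjusted p 0.0049). Among intermediate filaments, INA (alpha-internexin) averaged 63.1 against 94.2 FPKM (log2 difference -0.57, adjusted p 0.0023). The neurofilament subunits, singled out after their values were seen, also fell, with NEFL at 31.7 against 50.6 (log2 difference -0.66, adjusted p 0.0026), NEFH at 22.7 against 33.1 (-0.53, adjusted p 0.0043) and NEFM at 67.1 against 83.3 (-0.31, adjusted p 0.041). The list did not move as a block: STMN2, the most abundant member, stood at 517 against 528 FPKM (log2 difference -0.032, adjusted p 0.81), and SYT1, a calcium sensor of vesicle release, at 22.7 against 19.9 (log2 difference 0.18, adjusted p 0.18). With SK-N-SH shTSPYL5 replicate 2 left out 10 members fell, and 11 did without BE2 shNC replicate 1 or replicate 2. With the replicate number as a block 7 fell. In bulk RNA, fewer cells of a kind and less RNA per cell cannot be told apart.

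Noradrenergic genes held calls in both directions: of 23 tested members 4 rose and 6 fell, with a median log2 difference of -0.08. Together 43.5% of the list was called, against 6.14% of all genes. TH, which catalyses the first step from tyrosine to noradrenaline, stood at 103, 108 and 113 FPKM in the libraries labelled SK-N-SH shTSPYL5 and at 168, 174 and 169 in BE2 shNC (log2 difference -0.65, SE 0.051, adjusted p 0.0026). CHGB, a secretory granule protein, stood at 88.5, 92.8 and 93.7 against 65.1, 64.9 and 59.2 FPKM and rose (log2 difference 0.53, SE 0.053, adjusted p 0.0041). NPY, a co-transmitter of sympathetic neurons, measured 3.82, 6.05 and 6.43 against 10.2, 11.1 and 10.6 FPKM (log2 difference -0.88, SE 0.16, adjusted p 0.025), with its lowest library far from the other 2 of its group. Its call ended without 4 of the 6 single libraries, and its adjusted p reached 0.092.

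Enzymes of the catecholamine pathway, singled out after their values were seen, did not share a direction. DDC, which follows TH, averaged 48.7 against 59.9 FPKM (log2 difference -0.29, adjusted p 0.015), while DBH, which makes noradrenaline, averaged 7.93 against 5.93 (0.37, adjusted p 0.035). Several core factors of the lineage did not pass: PHOX2A stood at 299 against 294 FPKM (0.021, adjusted p 0.88), HAND2 at 309 against 352 (-0.19, adjusted p 0.13) and ISL1 at 39.5 against 42.9 (-0.11, adjusted p 0.17). The summed level of the list was 1869 to 1979 FPKM in the libraries labelled SK-N-SH shTSPYL5 and 2015 to 2084 in BE2 shNC, against 322 to 563 in the other 6 libraries. With single libraries left out, 2 to 8 members fell and 2 or 3 rose, and the lowest count of falls came without BE2 shNC replicate 1 or SK-N-SH shTSPYL5 replicate 2.

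Of 14 tested genes in the list of receptor kinases and neurotrophic ligands, 5 fell and 2 rose, or 50% called against 6.14% of all genes. GFRA3, the artemin co-receptor of the RET kinase, stood at 1.75, 1.21 and 1.56 FPKM against 4.82, 4.31 and 4.82 (log2 difference -1.18, SE 0.091, adjusted p 0.0026), and the groups were far apart. KIT, the receptor kinase for stem cell factor, stood at 4.24, 3.94 and 4.02 against 7.89, 8.25 and 7.72 FPKM (log2 difference -0.82, SE 0.046, adjusted p 0.0013). GFRA2, the neurturin co-receptor, averaged 1.18 against 2.47 FPKM (log2 difference -0.67, adjusted p 0.0092), and ALK, a kinase mutated in some neuroblastomas, 9.45 against 14.7 (log2 difference -0.59, adjusted p 0.0039). RET itself, singled out after its values were seen, moved the other way, at 30.9, 30.9 and 32.2 against 25.1, 25.7 and 23.2 FPKM (log2 difference 0.33, SE 0.048, adjusted p 0.013).

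Among Notch pathway genes, 2 of 10 rose and 1 fell (30% called, against 6.14% of all genes), and these 3 calls held whichever single library was left out. NOTCH3 stood at 4.47, 4.25 and 4.17 FPKM in the libraries labelled SK-N-SH shTSPYL5 and at 2.33, 2.09 and 2.54 in BE2 shNC (log2 difference 0.67, SE 0.064, adjusted p 0.0038). NOTCH2 measured 3.05, 2.83 and 2.85 against 1.57, 1.54 and 1.56 FPKM (log2 difference 0.61, SE 0.054, adjusted p 0.003). Both receptors were higher in each library of the first group, while the ligand JAG2 was lower, at 5.72 against 7.84 FPKM (log2 difference -0.40, adjusted p 0.0059). In the Wnt list of 8 (25% called), MSX2 fell (4.09 against 6.62 FPKM) and LGR5, a receptor for R-spondins, rose (28.99 against 21.8 FPKM). GREM1, a secreted BMP antagonist, was the single call of 14 BMP and TGF-beta genes (7.14%, near the share of all genes), at 7.18 against 9.49 FPKM (log2 difference -0.36, adjusted p 0.016), and lost it without 3 of the 6 single libraries.

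MAPK feedback genes held calls in both directions, 3 higher and 2 lower of 16 (31.2% called, against 6.14% of all genes). PHLDA1 averaged 4.09 against 2.66 FPKM (log2 difference 0.48, adjusted p 0.0049) and ETV1, a transcription factor of the ETS family, 5.24 against 3.38 (0.51, adjusted p 0.0075). DUSP8, a phosphatase of MAP kinases, fell to 2.47 from 4.65 FPKM in the labelled control (-0.70, adjusted p 0.0025). Of 18 immediate early genes (22.2% called), JUN, EGR1 and SRF were lower and CTGF higher. EGR1, a zinc finger factor, stood at 4.13 against 5.73 FPKM (-0.39, adjusted p 0.019), and CTGF, a matrix-associated growth factor, at 1.56 against 0.765 (0.54, adjusted p 0.022). The calls of EGR1, SRF and CTGF ended when some single libraries were left out, and that of JUN did not.

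Summed over the list, mesenchymal genes were low in both groups beside the other libraries, and most did not pass the test between the groups. Their summed level was 667 to 720 FPKM in the libraries labelled SK-N-SH shTSPYL5 and 609 to 654 in BE2 shNC, against 7073 to 8686 in the other 6. Of 28 tested members 5 rose, 1 fell and 22 did not pass (21.4% called, against 6.14% of all genes), with a median log2 difference of 0.047. SPARC, a matrix glycoprotein, stood at 38.1, 39.3 and 39.7 against 29.7, 27.2 and 27.9 FPKM (log2 difference 0.45, SE 0.045, adjusted p 0.0041). COL3A1, a fibrillar collagen, averaged 8.05 against 5.36 FPKM (0.51, adjusted p 0.021) and lost its call without 4 of the 6 single libraries. Single members differed in level. PRRX1 stood at 0.069 and 0.050 FPKM and AXL at 0.333 and 0.226, far below the other groups. TWIST1, PRRX2 and SNAI1 stood above the other groups, at 126 and 134, 52.3 and 55.0, and 7.80 and 7.52 FPKM. In BE2 shTSPYL5 and SK-N-SH shNC these genes averaged 46.9 and 73.0, 7.25 and 8.34, and 1.84 and 2.88 FPKM. With single libraries left out, 1 to 3 members rose.

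Most markers of other cells were scarce. The Schwann cell list summed to 19.7 to 20.1 FPKM in the first group and 20.2 to 22.7 in the second, against 6.11 to 11.6 in the other libraries. PMP22 held most of that sum, at 13.7 and 14.9 FPKM, with NGFR at 4.47 and 5.10 and SOX10 at 0.086 and 0.080. Epithelial markers summed to 1.39 to 1.76 and 1.60 to 2.20 FPKM, with 1 read of CDH1 over the 6 libraries. Blood and endothelial markers summed to 1.46 to 1.68 and 1.14 to 1.33 FPKM, without overlap. PTPRC (CD45) was the 1 tested gene of these 12 and held most of that sum, at 1.22 against 0.711 FPKM (0.37, adjusted p 0.046), a call that ended whichever single library was left out, while CD3E and PECAM1 had 0 reads. The part of these marker differences in the results above was not tested.

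Of 29 S phase genes 4 fell and none rose (13.8% called, against 6.14% of all genes), with a median log2 difference of -0.09. RRM2, a subunit of ribonucleotide reductase, stood at 18.3, 18.9 and 21.2 FPKM against 28.3, 31.7 and 29.8 (log2 difference -0.60, SE 0.066, adjusted p 0.0055). CCND1, cyclin D1, stood at 121 against 157 FPKM (-0.38, adjusted p 0.0068). None of 25 G2/M genes, 27 ribosome biogenesis and MYC target genes, 30 cytosolic ribosomal proteins, 20 unfolded protein response genes, 29 hypoxia and glycolysis genes or 15 mitochondrially encoded genes passed, and the median log2 differences of these lists ran from -0.055 to 0.068. At an unadjusted p under 0.05 in limma these lists held 4, 2, 0, 4, 10 and 0 genes in that order, and limma-voom called 1, 1, 0, 2, 5 and 0. Of 12 MYC network genes (8.33% called), MLX fell (12.03 against 16.5 FPKM, -0.43, adjusted p 0.021), a call that ended without 5 of the 6 single libraries.

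Of 30 cholesterol and fatty acid synthesis genes 5 fell and 2 rose (23.3% called, against 6.14% of all genes). STARD4, a sterol transport protein, was the member with the greatest difference and was higher, at 30.6, 31.98 and 30.2 FPKM against 21.6, 21.7 and 19.7 (log2 difference 0.53, SE 0.05, adjusted p 0.0037). The lower members numbered 6 without SK-N-SH shTSPYL5 replicate 3 and 0 without any other single library. Of 28 genes of the ATF4 and amino acid response 4 rose and none fell (14.3% called), with a median of 0.14, and 22 of the 28 differences were positive. SLC7A11, the cystine transporter, averaged 2.95 against 2.001 FPKM (0.39, adjusted p 0.049), and none of the 4 calls held under every alternative.

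Single genes named for their roles in stress and cell cycle control mostly did not pass. G3BP1, a stress granule protein, averaged 24.3 against 24.9 FPKM (-0.035, adjusted p 0.66), and RANBP2, a nucleoporin with SUMO ligase activity, 16.1 against 16.1 (-0.0086, adjusted p 0.95). CDKN1A, the cell cycle inhibitor p21, stood at 3.65, 3.94 and 3.93 FPKM against 2.44, 2.11 and 2.14 (log2 difference 0.58, SE 0.061, adjusted p 0.0048). Both levels are low beside the other 6 libraries, where CDKN1A averaged 332 FPKM in BE2 shTSPYL5 and 295 in SK-N-SH shNC. MDM2, a ubiquitin ligase, measured 3.89 against 3.82 FPKM and did not pass (0.02, adjusted p 0.88).

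Within the TSPY and NAP family TSPYL5 was the 1 call of 9 tested genes (11.1%). TSPYL1 stood at 14.5, 14.5 and 15.2 FPKM against 16.04, 16.9 and 15.9 (log2 difference -0.13, SE 0.042, adjusted p 0.13), and TSPYL4 and TSPYL2 averaged 20.6 and 5.91 against 21.3 and 6.01. The histone chaperone SET, the most abundant member, averaged 162 against 168 FPKM (-0.055, adjusted p 0.62). Among NAP1-like genes NAP1L1, NAP1L3, NAP1L4 and NAP1L5 had log2 differences from -0.17 (NAP1L5) to 0.047 (NAP1L1), with adjusted p from 0.3 to 0.74. Of 19 apoptosis regulators 3 rose and 1 fell (21.1% called, against 6.14% of all genes), and these calls did not hold under every alternative. BMF, a BH3-only protein, averaged 4.28 against 3.303 FPKM (0.29, adjusted p 0.017).

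Of 10 tested genes for RNA quality and stress RNAs none passed, with a median log2 difference of 0.13, 3 genes at an unadjusted p under 0.05 in limma and 2 called by limma-voom. The interferon (6.25%), antioxidant (6.25%) and heat shock (6.67%) lists had shares of calls near the 6.14% of all genes. HLA-C, which presents peptides to T cells, was the single call of 16 interferon response genes, at 11.1, 11.2 and 11.1 FPKM against 7.98, 8.08 and 7.58 (log2 difference 0.45, SE 0.039, adjusted p 0.0029). NQO1, a quinone reductase, was the single call of 16 antioxidant genes (15.3 against 11.2 FPKM, 0.42, adjusted p 0.015), and the chaperone HSPH1 that of 15 heat shock genes (15.5 against 18.6 FPKM, -0.26, adjusted p 0.036). Among 21 chromatin enzymes (14.3% called) EZH2, the methyltransferase of Polycomb complex PRC2, was higher (32.3 against 27.6 FPKM) and SUZ12, of the same complex, lower (7.902 against 10.3 FPKM), as was the remodeler CHD5 (0.697 against 1.29 FPKM). Among 11 stemness and surface genes (18.2% called), NES, the intermediate filament nestin, fell (48.1 against 59.3 FPKM) and the Notch-related membrane protein DLK1 rose (49.9 against 39.4). Of the calls in these lists HLA-C alone held under every alternative.

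The chromosomal position of the differences was examined after values had been seen, over genes with a mean of at least 5 FPKM, so these counts are descriptions. In the first 30 Mb of chromosome 17 (GRCh38, chr17:1-30000000), 110 of 117 genes (94.0%) were lower in SK-N-SH shTSPYL5, with a median log2 difference of -0.16, and 24 were called lower and 2 higher (22.2%, against 7.10% of the 7040 genes elsewhere). The rest of the chromosome had a median of -0.084 over 330 genes, and all genes outside the first 30 Mb of chromosome 17 had a median of -0.006, with 52.2% of 7040 lower. A second stretch, 70 to 90 Mb on chromosome 1, had a median of -0.22, with 29 of 31 genes lower and 11 called (35.5%). Of 190 windows of 10 Mb with at least 15 such genes, 5 had a median under -0.15 and none had one above 0.15. These 5 windows are the stretches themselves, whose bounds were chosen after the values were seen, so their position in them adds nothing.

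USP22, a deubiquitinase of the SAGA complex on chromosome 17, stood at 32.6, 31.01 and 31.4 FPKM against 40.1, 37.7 and 39.1 (log2 difference -0.29, SE 0.041, adjusted p 0.012). TAOK1, a kinase, averaged 5.18 against 6.75 FPKM (-0.32, adjusted p 0.04), and the neuronal gene VAMP2 of the list above lies there too (11.9 against 14.8 FPKM, -0.29, adjusted p 0.031). The 2 higher genes were SERPINF1, a secreted factor (55.7 against 40.5 FPKM), and SREBF1, a lipid regulator (11.9 against 9.63). On chromosome 1 RPF1, a ribosome biogenesis factor, averaged 21.9 against 28.1 FPKM (-0.34, adjusted p 0.016) and USP33, a deubiquitinase, 8.15 against 10.6 (-0.34, adjusted p 0.0075). Split into 5 classes of GC content with equal numbers of genes, the chromosome 17 stretch had medians of -0.20, -0.15, -0.17 and -0.13 in the 4 classes that hold its genes, and other genes of the same classes had medians between -0.014 and -0.0016. The 10 genes around MYCN on chromosome 2 (chr2:14000001-18000000) had a median of -0.029.

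**Figure D3:**
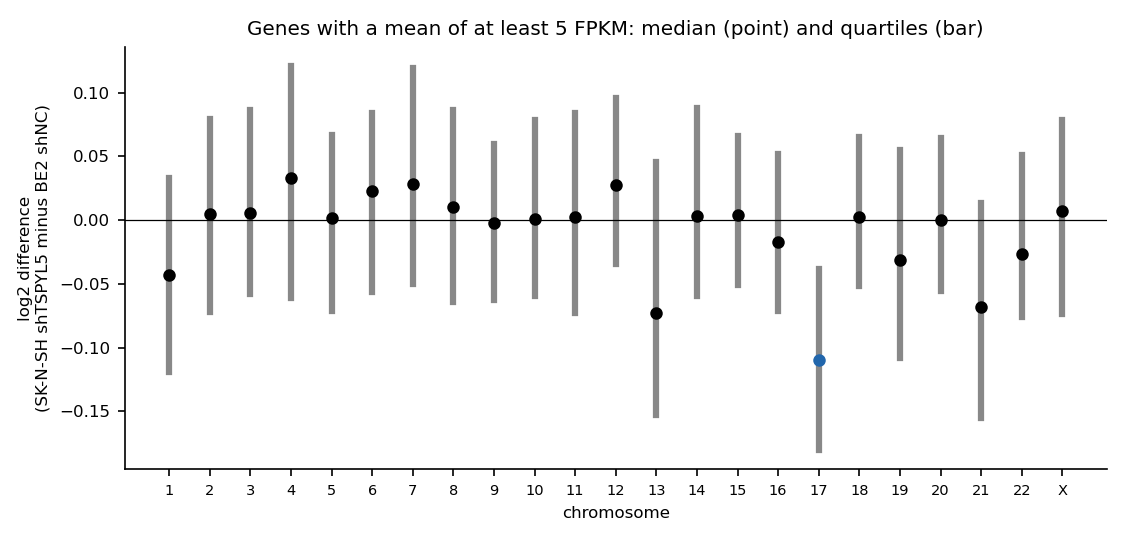
Log2 difference, SK-N-SH shTSPYL5 minus BE2 shNC (vertical), by chromosome (horizontal), for genes with a mean of at least 5 FPKM: points are medians, bars run from the lower to the upper quartile. Chromosome 17, in blue, has a median of -0.11 over 447 genes and an upper quartile below 0; chromosomes with under 30 such genes are not drawn.

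The second pair, BE2 shTSPYL5 minus SK-N-SH shNC, holds the same contrast of hairpin labels between libraries of the other kind. It shares no library with the first, and its line labels run the other way, BE2 minus SK-N-SH. In the second pair 6275 of the same 15118 genes were called (41.5%). By the labels, the difference between the pairs sets both SK-N-SH groups against both BE2 groups. A hairpin effect equal in both pairs cancels in it, so it does not measure the hairpin. This difference was called for 5128 genes (33.9%), and for 680 (73.2%) of the 929 called in the first pair. The first-pair difference is part of the value tested, so choosing genes by it raises that share. The share therefore does not show that the calls are particular to the first pair. TSPYL5 differed between the pairs by -0.45 (SE 0.07, adjusted p 9.44e-04): in the second pair it stood at 13.3, 12.4 and 12.6 FPKM against 13.1, 13.4 and 12.2. Of the 405 genes higher in the first pair, 85 (21.0%) were higher and 116 (28.6%) lower in the second, and of the 524 lower, 80 (15.3%) were lower and 142 (27.1%) higher. Over all genes tested 25.8% were higher and 15.7% lower in the second pair, so the higher genes lay below that share for rises and above it for falls, and the lower genes lay near both. These are 2.18%, 4.88%, 3.36% and 3.64% of the second pair's lists, in that order, against 2.68% of all genes that were higher and 3.47% that were lower in the first. Across all genes the log2 differences of the pairs had a Pearson correlation of -0.078, which describes 15118 genes that are not independent.

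Called in the same direction in both pairs were 85 higher and 80 lower genes, and the 5 named in each direction follow. FGFRL1 rose in the second pair from 3.98 to 11.01 FPKM, AQP1, a water channel, averaged 4.72 against 2.698 in the first and 2.55 against 1.24 in the second, and B4GALT6, a lactosylceramide synthase, 2.27 against 1.18 and 2.12 against 0.988. LNCAROD and the lymphatic growth factor VEGFC completed the 5 highest, the first pair measuring 1.86 against 0.952 and 1.801 against 0.894 FPKM. ADD3, an actin-capping adducin, was lower in both pairs, at 3.91 against 6.38 and 9.54 against 20.6 FPKM. So was the adhesion protein FLRT3, at 2.47 against 4.51 and 2.14 against 3.86. HAS2, a hyaluronan synthase, ALG13-AS1 and RF00019 (ENSG00000200170), a small RNA gene, were the others, with first-pair means of 0.944 against 1.93, 0.304 against 1.32 and 1.39 against 2.73 FPKM. ALG13-AS1 rested on few reads, 3 against 13 in the first pair and 6 against 22 in the second. The symbol RF00019 has several entries. Another one went the other way, at 1.14, 1.72 and 0.637 FPKM in SK-N-SH shTSPYL5 against 0 in each BE2 shNC library (adjusted p 0.022, limma). The first-pair calls of LNCAROD, VEGFC, HAS2, ALG13-AS1 and RF00019 ended when some single libraries were left out.

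**Figure D4:**
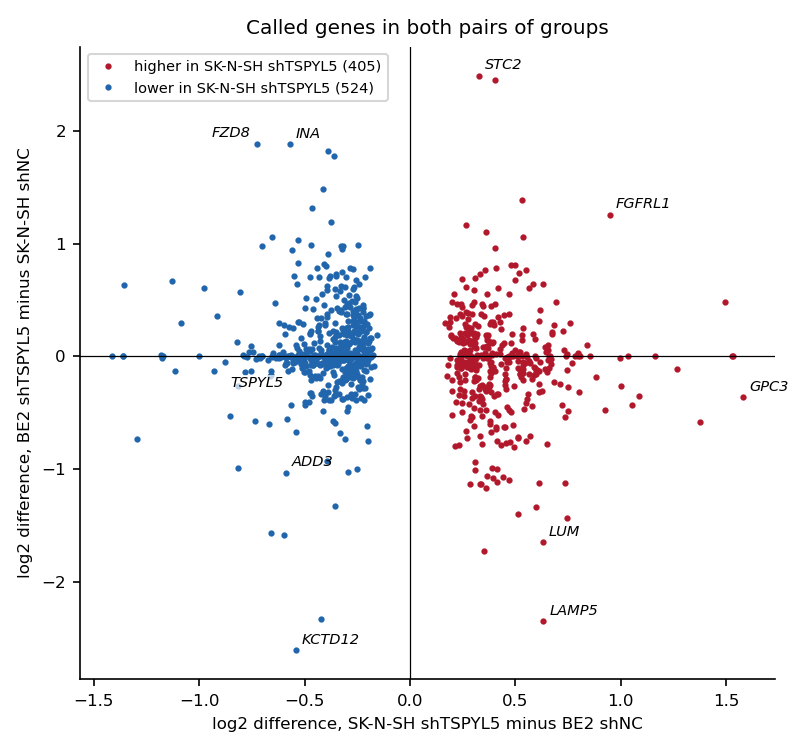
Log2 difference in the first pair (horizontal) and in the second pair (vertical) for the 929 genes called in the first; red genes are the 405 higher and blue the 524 lower in SK-N-SH shTSPYL5. All 4 quadrants are filled, with 85, 116, 142 and 80 genes also called in the second pair.

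The called genes were also compared with the other libraries by level. Of the 524 genes lower in SK-N-SH shTSPYL5, 261 (49.8%) stood at least 2-fold lower in both other groups than the mean of the pair, against 22.5% of all genes tested. Of the 405 higher genes 131 (32.3%) were lower there and 101 (24.9%) higher, against 12.04% of all genes that were higher. Genes entered by their mean in the pair alone. Genes near absent in the pair and high elsewhere were thus left out, so the shares lower and higher are not to be compared with each other. By level, 1.68% of genes under 1 FPKM were called, 7.69% of those between 20 and 100 and 2.31% of those over 100.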

How the data were processed

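RNA was sequenced from 12 libraries, 6 of which form the comparison. A NEBNext Ultra kit was used on 3 µg of RNA, per the labels' protocols. The submitters' processing notes name HISAT2 2.0.5, featureCounts 1.5.0-p3 and the build mm10, but all 58735 genes are human, with starts and ends as in GENCODE release 29, and coordinates here are those of GRCh38. The authors deposited FPKM per gene and library. The sources used here do not give the strand setting of the counting. Antisense genes such as ALG13-AS1 and their partners cannot be told apart. Multiplied by gene length, 100% of the values were whole multiples of 1 step per library (tolerance 0.05 reads), which gave the reads per gene. The deposited scaling followed size factors of these reads (median of ratios) and differed from library totals by a factor of 0.999 to 1.07 in the 6 libraries.

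Groups came from the sample titles. The test was limma 3.58.1 (R 4.3.3) on log2(FPKM + 1) (empirical Bayes with an intensity trend, two-sided, Benjamini-Hochberg over all 15118 genes, threshold 0.05) on the 6 libraries alone, and the difference between pairs on all 12. A log2 difference on that scale understates the change of low genes, so folds are ratios of mean FPKM. The steps were tested on simulated data. There the test of the pair recovered 10% of 1.25-fold, 55.1% of 1.5-fold, 90% of 2-fold and 88% of 4-fold changes. Of its 132 calls at the threshold of 0.05, 8.33% were false. On the same data limma-voom recovered 85.7% of 1.5-fold changes, and 3.1% of its 160 calls were false. Every simulated gene had the same relative spread between libraries, so these shares do not describe genes of greater spread. A gene that did not pass can therefore still differ by a small fold. The members and the 32 gene lists (700 of 701 symbols in the table, 572 tested) were chosen with earlier results of these data known, and lists are described by counts only. Older symbols were matched by gene ID. Values of CTGF stand in the immediate early and the mesenchymal list. Named are TSPYL5, MYCN, G3BP1, RANBP2, CDKN1A, MDM2 and the TSPY and NAP family, the 12 largest rises and falls whose higher group had at least 5 FPKM and whose libraries did not overlap, up to 4 called members of each list, and the 5 genes in each direction that were shared by the pairs or differed most between them. Some genes and lists that this rule covers are not reported here. Other alternatives concerned the pseudocount, the minimum level, protein-coding genes, scaling, the tool, the samples in the fit, single libraries and a replicate block. Same-numbered libraries of the groups had correlations of deviations of 0.042, -0.016 and -0.078, so the numbers were not taken as pairs. The level that 3 reads would equal covers counting error only. 0 columns belonged to no sample.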

Additional observations from a re-analysis of the deposited data

Results flagged for a closer look

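Each result here was picked out because the difference between SK-N-SH shTSPYL5 and BE2 shNC differed from that between BE2 shTSPYL5 and SK-N-SH shNC by a test of the difference itself, limma's contrast of the 4 group means with Benjamini-Hochberg adjustment over 15118 genes. Apart from TSPYL5 they are the 5 most positive and 5 most negative differences among genes called in the first pair. Values are log2 differences of the first pair minus those of the second. By the labels they set both SK-N-SH groups against both BE2 groups, and a hairpin effect equal in both pairs cancels.

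TSPYL5, the targeted gene, gave -0.45 (SE 0.07, adjusted p 9.44e-04), being lower in the knockdown-labelled libraries of the first pair and near equal in the second, at 12.8 and 12.9 FPKM. The most positive difference was that of LAMP5, a lysosome-associated membrane protein of neurons, at 2.98 (SE 0.15, adjusted p 6.36e-06): it averaged 25.8 against 16.3 FPKM in the first pair and 0.212 against 5.22 in the second. LUM, the matrix proteoglycan lumican, gave 2.28 (SE 0.19, adjusted p 3.37e-05), with 35.7 against 22.7 and 36.6 against 118 FPKM. VEGFD gave 2.18 (SE 0.34, adjusted p 9.80e-04) and averaged 0.5897 against 3.18 FPKM in the second pair. PDGFRB, a platelet-derived growth factor receptor, gave 2.07 (SE 0.16, adjusted p 2.09e-05), with 18.7 against 14.5 and 9.15 against 32.7 FPKM. These 4 genes were higher in the knockdown-labelled libraries of the first pair and lower in those of the second. KCTD12, an auxiliary protein of GABA-B receptors, was lower in both, less so in the first, and gave 2.07 (SE 0.14, adjusted p 1.34e-05).

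The 5 most negative differences belonged to genes whose second pair was higher. FZD8, a Wnt receptor, gave -2.61 (SE 0.17, adjusted p 1.32e-05), with 0.849 against 2.06 FPKM in the first pair and 9.31 against 1.798 in the second. INA gave -2.45 (SE 0.19, adjusted p 2.45e-05), with 5.96 against 0.853 FPKM in the second pair, and the tubulin gene TUBB2A gave -2.21 (SE 0.14, adjusted p 1.06e-05), with 60.1 against 79.1 and 58.6 against 15.7 FPKM. STC2, a secreted stress-response hormone that rose in both pairs, gave -2.16 (SE 0.16, adjusted p 1.63e-05), with 13.3 against 10.4 and 6.05 against 0.255 FPKM. GREM1 gave -2.13 (SE 0.33, adjusted p 8.94e-04), with 64.6 against 17.8 FPKM in the second pair. The calls of these 11 differences held with each of the 12 libraries left out in turn, an alternative chosen after seeing the data. Within the first pair alone, TUBB2A, STC2, GREM1 and PDGFRB lost their calls without some single libraries.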

How the results depend on the processing

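Of 94 named genes called in the pair, 51 kept their call under every alternative in which they were tested (17, or 16 for 5 genes), no call turned its direction, and 167 of the 929 called genes passed in all 18 fits. Without a filter on low values 499 genes were called (231 higher, 268 lower, 15 at least 2-fold, 52 list members), and with protein-coding genes only 1611 (691, 920, 12 and 134). limma-voom on whole reads with TMM factors called 1846 (813, 1033, 89 and 149, against 405, 524, 23 and 88), including 878 of the 929. Rescaling to a fixed sum gave 226 higher genes. Genes at least 2-fold changed numbered 73 with a pseudocount of 0.1, 0 with one of 5 and 10 with a minimum of 2 FPKM. With single libraries left out, 310 to 676 genes were called, 145 to 262 higher and 165 to 414 lower, with 37 to 76 list members, and 10 to 14 neuronal genes fell. The replicate block called 261 genes (127 higher, 134 lower, 32 list members, 7 neuronal genes lower). It uses up 2 of the few degrees of freedom, and same-numbered libraries did not deviate together. The median of the chromosome 17 stretch was -0.13 to -0.19 under all alternatives. TSPYL5 kept its call under each, and the count of differing pairs stayed between 4189 and 5243. The causes of these moves were not tested. The planned edgeR test was not run, because the deposited unit is FPKM. By level, 1.68% of genes passed under 1 FPKM and 2.31% over 100 FPKM.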
